A study of Mus musculus with 8 samples.

Results

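The calcium-calmodulin kinases and the phosphatase calcineurin read the calcium signal of an active synapse, and 10 of their genes were followed here: Camk2a, Camk2b, Camk2d and Camk2g, which encode the subunits of CaMKII, Camk4, Camkk1 and Camkk2 of the kinase cascade, and Ppp3ca, Ppp3cb and Ppp3r1 of calcineurin. They were chosen by symbol from the 22609 rows of the deposited table, all 10 were found, and all 10 passed the filter on low values among the 14704 genes tested. The tissue was the anterior cingulate part of the medial prefrontal cortex, taken from both sides of the brain of B6.SJL mice aged 3 months, 1 h after training. In the contextual fear conditioning group, 4 mice explored a conditioning chamber for 3 min before 2 shocks to the feet (0.8 mA, 2 s long, 30 s apart) and were removed 15 s later. The 4 mice of the context control exposure group had the same handling and chamber without a shock, so every sample carries the exposure to the chamber and there is no home cage group.

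Calcium entering through NMDA receptors and voltage-gated channels binds calmodulin, and calmodulin then switches on both arms of this pathway. CaMKII is a multi-subunit holoenzyme that phosphorylates its own neighbours and stays active after calcium has fallen, which made it a classical candidate for memory storage at excitatory synapses. In the cascade, CaMKKs phosphorylate CaMKIV, which acts largely in the nucleus on CREB and its partners. Calcineurin, a catalytic A subunit with the calcium-binding B subunit, responds to smaller calcium rises and opposes many kinase effects. The comparison asks whether transcripts of these enzymes differ in the cortex early after contextual fear conditioning. Only the conditioned mice were shocked, so effects of the shock itself and of learning cannot be told apart.

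The deposited numbers, called values below, are read counts of genes after division by 1 factor for each library. Recovered gene reads ran from 1992452 to 3565356 per library, and a member rested on between 210 reads (Camkk1) and 5559 reads (Camk2a) in a library. Neuronal markers fixed for the tissue check were read in every library, the vesicle protein gene Snap25 between 2377 and 3338 and the cortical glutamate transporter gene Slc17a7 between 1525 and 3162, while the upper layer gene Cux2 read 19.1 to 251 and the interneuron transporter gene Slc32a1 56.6 to 195. Of the striatal markers, Drd2 and Gpr6 read 0 to 17.5 and 0 to 4.0, and Drd1 42.4 to 243. Libraries also differed in how values followed the GC content of transcripts, from 0.43 on the log2 scale per 10 percentage points of GC in fear conditioning replicate 2 to -0.61 in fear conditioning replicate 4, over 9714 genes.

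Per kilobase of transcript, Camk2a and the calcineurin B gene Ppp3r1 were the most abundant members, and Camk2d and Camkk1 the least. The value per kb of the longest transcript was 1062 ± 188 for Camk2a and 988 ± 147 for Ppp3r1 (SD over 8 samples). Camk2a was the higher of the pair in 4 of 8 samples, so their order was not resolved. Next came a tier of 4 genes, Ppp3cb at 449 ± 67.3, Camk4 at 444 ± 106, Camk2b at 387 ± 96.5 and Ppp3ca at 372 ± 35.8 (SD over 8 samples, value per kb). Neighbours within that tier changed places between samples, the upper gene being higher in 4 or 5 of 8. The lowest sample of Ppp3r1 (765 per kb) was above the highest of the tier (Camk4, 654). Ppp3ca was above Camk2g, at 244 ± 33.9 per kb, in 8 of 8 samples. Camkk2 stood at 201 ± 42.3 per kb, Camk2d at 108 ± 23.4 and Camkk1 at 104 ± 26.9, with Camk2d above Camkk1 in 4 of 8 samples. These levels depend on the length used. With the union of all annotated exons, Ppp3r1 ranked 1 and Camk2a 2, and Camk2d, whose annotated exons span 22493 bases, ranked 10.

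**Figure D1:**
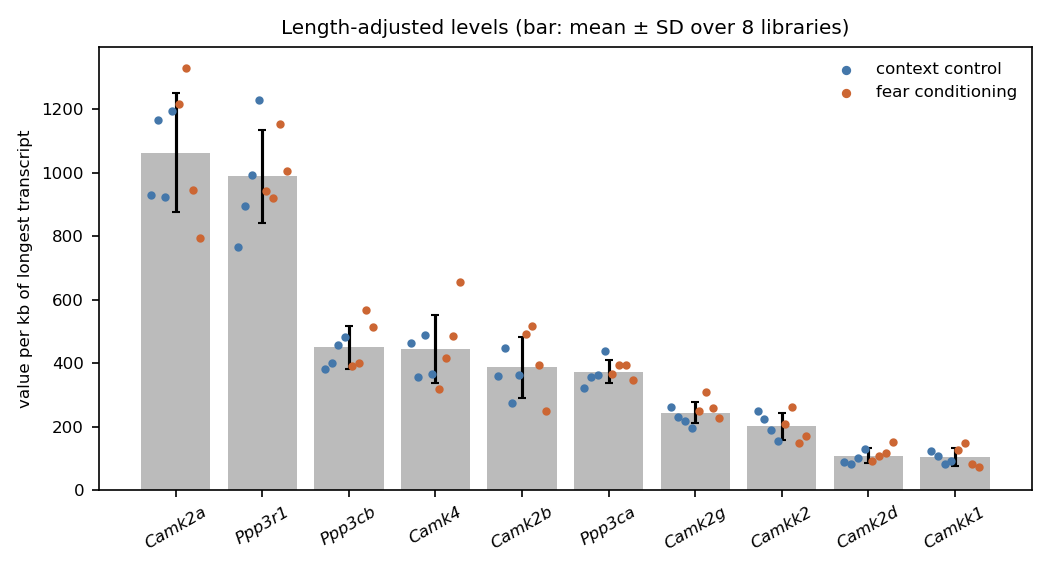
Value per kb of the longest annotated transcript for the 10 genes, with a point for each library and a bar for the mean ± SD over 8 libraries. Camk2a (1062) and Ppp3r1 (988) stand apart from a tier of 4 genes between 372 and 449, and Camk2d and Camkk1 are lowest at 108 and 104.

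Within CaMKII, Camk2a made up most of the length-adjusted level in both groups. Its share of the summed value per kb of the 4 subunit genes was 60.4% ± 2.81 in controls and 57.3% ± 2.07 in conditioned samples (SD, n = 4). Camk2b held 20.6% ± 2.41 and 21.8% ± 2.94, Camk2g 13.2% ± 2.49 and 14.2% ± 1.67, and Camk2d, the subunit known best from the heart, 5.74% ± 1.22 and 6.65% ± 2.85. The shares depend on the length used: by the union of exons Camk2a held 68.6% ± 2.97 and 65.9% ± 1.65, and Camk2d 2.41% ± 0.511 and 2.84% ± 1.25. The shares describe transcripts and say nothing of subunits in the protein.

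None of the 10 genes changed detectably 1 h after conditioning. limma called 0 of 10 members at an adjusted p under 0.05, and 0% of the 14704 tested genes passed, 0 of them. At an unadjusted p under 0.05 limma had 0 members and 2.7% of tested genes (397). edgeR and DESeq2 on recovered reads also called 0 members and 0 genes, with 0 members and 2.62% (385) and 2.31% (340) of genes at an unadjusted p under 0.05. The groups overlapped for all 10 members, where 1.92% of tested genes had groups that did not overlap. The adjusted p was 0.9998 for each member by limma. In all, 9 members had a higher mean log2 value after conditioning and 1, Camkk2, a lower one, with a median log2 change of 0.09, against 51.8% of tested genes higher and a median of 0.0095. The split was also 9 and 1 with edgeR and DESeq2, and it was 8 and 2 with GC correction. With quantile normalization it was 6 higher and 4 lower, with a median of 0.0037. The count depended on the scaling, and no direction is claimed for the family. The 95% intervals bound what could have gone undetected: over the 10 members they reached from 0.709-fold (Camkk2) to 1.57-fold (Camk2b). The labels call the samples biological replicates.

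**Figure D2:**
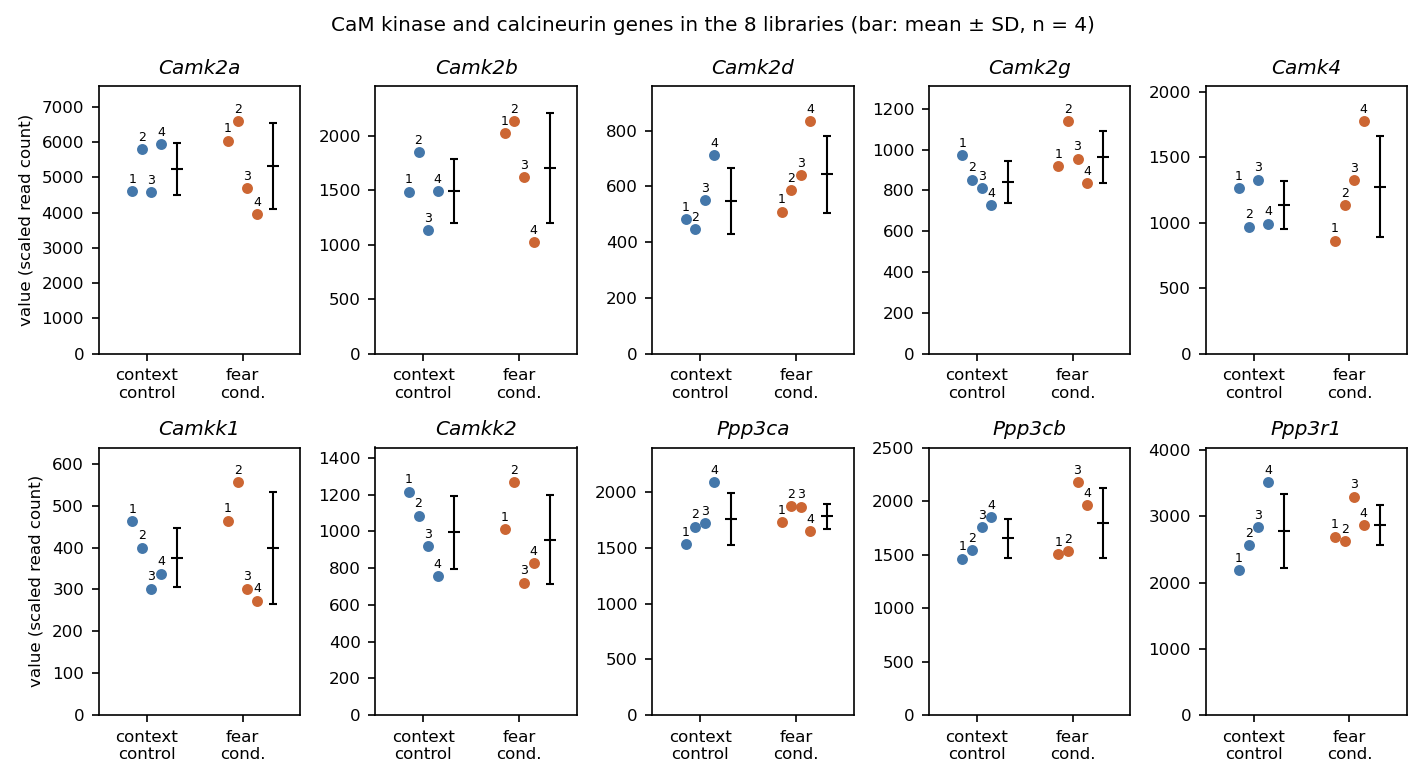
Values of the 10 genes in each library, with replicate numbers beside the points and the mean ± SD of each group of 4. The groups overlap in all 10 panels, and for Camkk1 the conditioned samples run from 273 to 556 around controls of 301 to 463.

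Camk2a encodes the alpha subunit, the main forebrain isoform, whose messenger RNA is also carried into dendrites. Control replicates 1 to 4 read 4617, 5798, 4582 and 5937, and conditioned replicates 1 to 4 read 6050, 6607, 4696 and 3953. The conditioned samples held both the highest and the lowest value of the 8. The log2 change was 0.01 ± 0.18 (SE), and its 95% interval of 0.769-fold to 1.31-fold leaves smaller shifts undetected at this size of study. The sign was not stable, with a log2 change of -0.16 under quantile normalization and -0.02 after GC correction.

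Camk2b encodes the beta subunit, which binds actin and ties the holoenzyme to the spine skeleton. Its values, in the same order of replicates here and below, were 1487, 1851, 1129 and 1492 in controls and 2026, 2136, 1622 and 1025 after conditioning. As for Camk2a, fear conditioning replicates 1 and 2 were the 2 highest samples and fear conditioning replicate 4 the lowest. The log2 change was 0.16 ± 0.23 (SE), and it was 0.38 without fear conditioning replicate 4 and 0.03 without fear conditioning replicate 2 or context control replicate 3. The delta subunit gene Camk2d read 482, 447, 552 and 711 in controls and 510, 588, 639 and 836 after conditioning. Fear conditioning replicate 4, the lowest sample for Camk2b, was here the highest. The log2 change of Camk2d, 0.23 ± 0.19 (SE), had an interval of 0.883-fold to 1.56-fold. It ranged from 0.096 without fear conditioning replicate 4 to 0.36 without context control replicate 4. Camk2g, encoding the gamma subunit, read 973, 853, 810 and 729 in controls and 918, 1141, 955 and 837 after conditioning. Its log2 change was 0.19 ± 0.15 (SE), and its unadjusted p of 0.208 in limma was the smallest of the members.

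Camk4 encodes CaMKIV, the nuclear kinase of the cascade. It read 1262, 968, 1328 and 991 in controls and 863, 1131, 1323 and 1778 after conditioning. The conditioned samples again spanned the full range, with the highest value in replicate 4 and the lowest in replicate 1. The log2 change was 0.13 ± 0.21 (SE), and it was -0.05 without fear conditioning replicate 4 and -0.08 with array weights. Of the kinases upstream, Camkk1 read 463, 400, 301 and 338 in controls and 464, 556, 302 and 273 after conditioning. Camkk2, which also activates AMP-activated kinase, read 1217, 1085, 921 and 755 in controls and 1011, 1267, 720 and 825 after conditioning. In both genes the samples numbered 1 and 2 were above those numbered 3 and 4 in each group. The log2 changes were 0.04 ± 0.23 and -0.07 ± 0.20 (SE).

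Ppp3ca, the gene of the main calcineurin catalytic subunit in brain, read 1535, 1692, 1725 and 2089 in controls and 1734, 1878, 1871 and 1649 after conditioning. All 4 conditioned samples lay inside the range of the controls, and the log2 change was 0.03 ± 0.13 (SE) with an interval of 0.833-fold to 1.24-fold. The second catalytic gene, Ppp3cb, read 1460, 1538, 1754 and 1848 in controls and 1502, 1532, 2174 and 1963 after conditioning, a log2 change of 0.11 ± 0.16 (SE), which was 0.0096 without fear conditioning replicate 3 and 0.0014 with quantile normalization. The regulatory subunit gene Ppp3r1 read 2188, 2562, 2834 and 3515 in controls and 2694, 2632, 3297 and 2871 after conditioning, a log2 change of 0.07 ± 0.16 (SE). For Ppp3r1, as for Ppp3ca, the controls spread more widely than the conditioned samples and enclosed them. The SD of the log2 values over 8 samples was 0.14 for Ppp3ca and 0.21 for Ppp3cb and for Ppp3r1, against 0.20 for Camk2g, 0.38 for Camk2b and 0.37 for Camkk1.

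**Figure D3:**
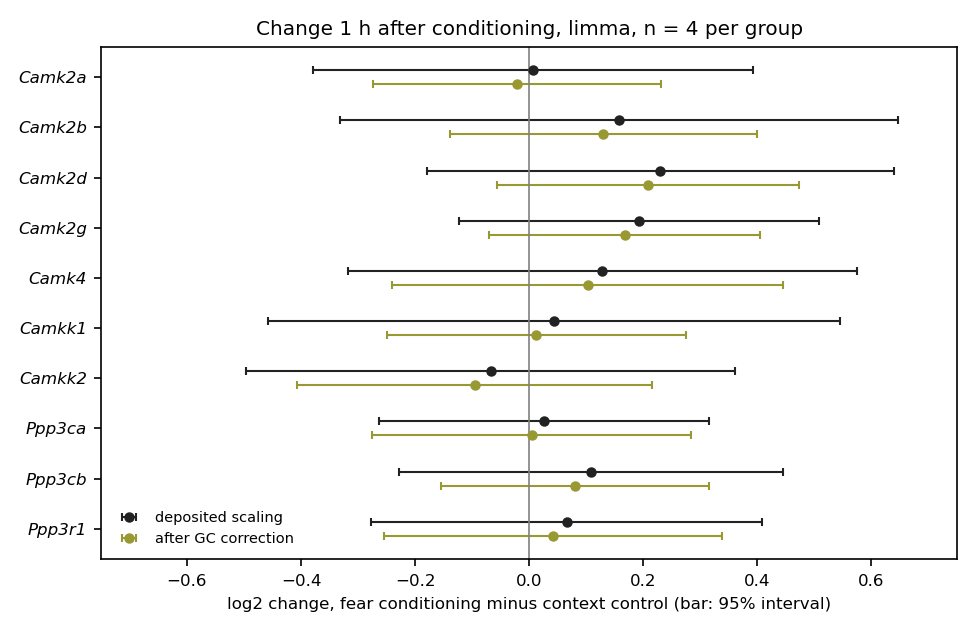
Log2 change of each gene, fear conditioning minus context control, with 95% intervals from limma, for the deposited scaling and after GC correction. Every interval includes 0 in both fits, and the median reach to either side is 0.40 with the deposited scaling and 0.27 after GC correction.

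Ratios within a sample do not depend on the scale factor of that sample, and 3 were compared by exact two-sided permutation over 70 assignments, whose smallest p is 0.0286. The value of Camk2a relative to Camk2b was 3.11, 3.13, 4.06 and 3.98 in controls and 2.99, 3.09, 2.90 and 3.86 after conditioning. In 3 conditioned samples the ratio was below all controls and in the fourth it was between them. The log2 ratio differed by -0.15 (exact permutation p = 0.171, adjusted p = 0.514 over the 3 ratios). The Ppp3ca to Ppp3cb ratio was 1.07 ± 0.0641 in controls and 1.02 ± 0.199 after conditioning (SD, n = 4, exact permutation p = 0.571, adjusted p = 0.571). The Camkk1 to Camkk2 ratio was 0.381 ± 0.0499 and 0.412 ± 0.0562 (SD, n = 4, exact permutation p = 0.457, adjusted p = 0.571). None of the 3 passed, and values of different genes in these ratios are not length-adjusted.

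The 8 libraries differed among themselves in these genes along a line that the groups do not mark. Camkk1, Camkk2, Ppp3cb and Ppp3r1 each separated the 4 libraries numbered 1 and 2 from the 4 numbered 3 and 4 without overlap, as did 26% of all tested genes, so this is not particular to the family. Camkk1 lay between 400 and 556 in the former and 273 and 338 in the latter, and Camkk2 between 1011 and 1267 against 720 and 921. Ppp3cb ran the other way, at 1460 to 1538 against 1754 to 2174, and so did Ppp3r1, at 2188 to 2694 against 2834 to 3515. The labels give no meaning to the replicate numbers.

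The direction followed the GC content of the transcript. The 5 members above 50% GC (Camkk1 at 55.2%, Camk2b at 53.9%, Camk2a at 53.3%, Camkk2 at 53.1% and Camk2g at 51.8%) all had higher mean log2 values in the libraries numbered 1 and 2, by between 0.22 (Camk2g) and 0.62 (Camkk1). The 5 below 50% (Camk4 at 48.2%, Ppp3ca at 45.4%, Camk2d at 43.9%, Ppp3r1 at 41.4% and Ppp3cb at 39.8%) all had lower ones, by between -0.10 (Ppp3ca) and -0.42 (Camk2d). Over all tested genes, 78.1% of those above 50% GC were higher and 78.7% of the rest lower in those libraries. The GC trend was positive in the 4 libraries numbered 1 and 2, at 0.17, 0.29, 0.36 and 0.43, and negative in the other 4, at -0.12, -0.17, -0.35 and -0.61, on the log2 scale per 10 percentage points. After GC correction the largest such difference among the members was 0.26, for Camkk2. Those of Ppp3ca, Ppp3cb and Ppp3r1 turned positive, at 0.16, 0.02 and 0.05, while those of Camk2d and Camk4 stayed negative. The spread over the 8 samples was smaller for 8 of 10 members, the SD of Camkk1 going from 0.37 to 0.15 and that of Camk2b from 0.38 to 0.20. It was larger for Ppp3ca, which went from 0.14 to 0.20, above the 0.15 of Ppp3cb, and for Ppp3r1. The correction subtracts each library's own GC curve, so smaller differences along GC are built into it and are not separate evidence. With GC correction limma again called 0 of 10 members, with a smallest adjusted p of 0.935.

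**Figure D4:**
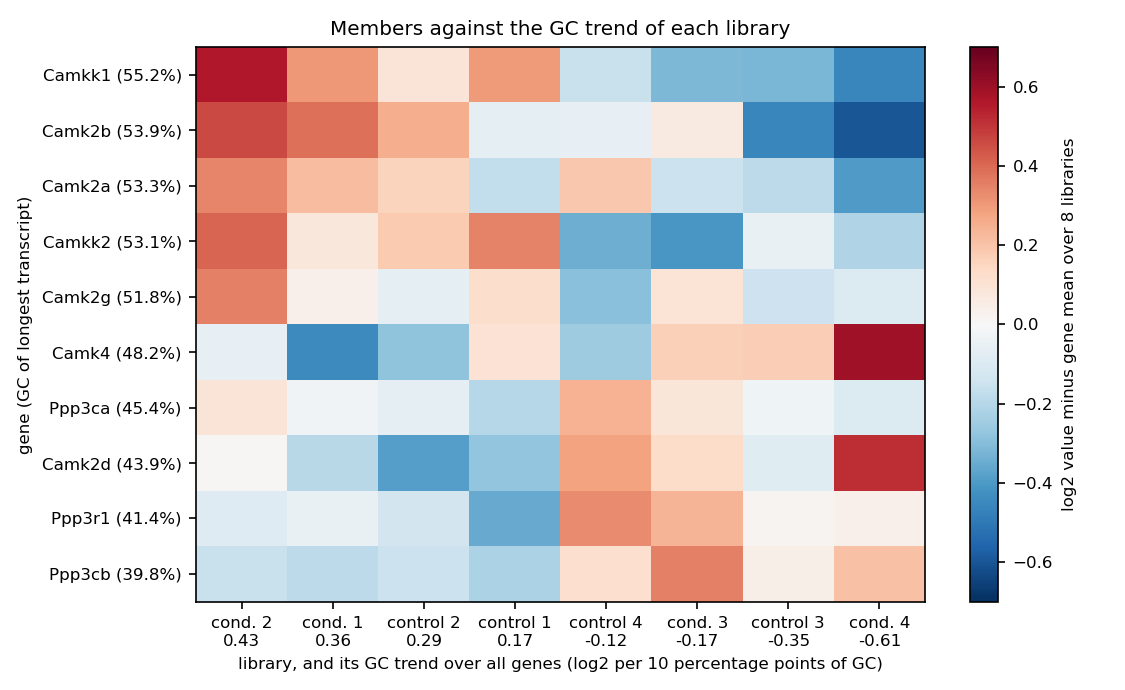
Log2 value of each gene minus its mean over 8 libraries, with genes ordered by the GC content of the longest transcript and libraries by their GC trend over all genes. Cells are mostly red in the upper left, where GC-rich members such as Camkk1 (55.2%) meet libraries with a positive trend. They are mostly blue in the upper right, with the opposite at the bottom for Ppp3r1 (41.4%) and Ppp3cb (39.8%). Exceptions include Camk2a, below its mean in context control replicate 1 (4617) and above it in context control replicate 4 (5937).

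The promoters of these 4 separating genes are shown because they let the GC content of the start region be set beside that of the transcript. RefSeq promoters (build GRCm38.p6) were matched by symbol, and the 250 bases before the start are printed 5′ to 3′ on the gene's strand. Capitals mark every match, on either strand, to the GC box GGGCGG, the CCAAT box CCAAT or TGACG, the core of the cAMP response element that CREB, downstream of CaMKIV, binds.
Camkk1, chr11:73018738-73018987, plus strand: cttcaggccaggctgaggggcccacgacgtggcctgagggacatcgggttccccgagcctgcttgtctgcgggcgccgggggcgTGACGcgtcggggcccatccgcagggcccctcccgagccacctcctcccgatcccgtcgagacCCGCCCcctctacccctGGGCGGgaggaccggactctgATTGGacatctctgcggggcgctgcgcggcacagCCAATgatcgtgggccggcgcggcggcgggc
Camkk2, chr5:122779411-122779660, minus strand: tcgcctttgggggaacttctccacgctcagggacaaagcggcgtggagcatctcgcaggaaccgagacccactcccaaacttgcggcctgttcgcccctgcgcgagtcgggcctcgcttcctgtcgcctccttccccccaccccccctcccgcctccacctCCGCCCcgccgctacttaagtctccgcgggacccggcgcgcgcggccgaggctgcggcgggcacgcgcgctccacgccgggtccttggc
Ppp3cb, chr14:20546574-20546823, minus strand: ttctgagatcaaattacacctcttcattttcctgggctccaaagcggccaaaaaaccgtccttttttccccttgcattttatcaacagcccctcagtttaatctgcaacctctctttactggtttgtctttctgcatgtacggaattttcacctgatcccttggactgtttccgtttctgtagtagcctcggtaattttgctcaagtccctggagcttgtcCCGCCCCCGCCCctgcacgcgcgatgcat
Ppp3r1, chr11:17159048-17159297, plus strand: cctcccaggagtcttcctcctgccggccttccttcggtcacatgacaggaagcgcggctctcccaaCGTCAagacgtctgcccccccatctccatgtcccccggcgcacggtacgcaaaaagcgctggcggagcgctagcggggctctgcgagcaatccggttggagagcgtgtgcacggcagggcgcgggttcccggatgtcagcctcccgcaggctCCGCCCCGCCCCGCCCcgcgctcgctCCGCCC
GC content of these windows was 74.4% for Camkk1, 72.4% for Camkk2, 48.4% for Ppp3cb and 70.8% for Ppp3r1, where the median of 32851 promoters in the table was 52.4%. The window of Ppp3r1 was GC-rich and its transcript GC-poor, while the window and transcript of Ppp3cb were both below 50%. A relation of promoter GC content to the library sets was not tested. The GC box was present in each of the 4, once in Camkk2, 2 times in Camkk1 and Ppp3cb and 4 times in Ppp3r1, counting overlapping matches, and in 32.7% of all promoters of this length. Camk2b and Camk2d, which did not separate the libraries, had 3 matches each, in windows of 78.4% and 68.4% GC. The share over all promoters was not matched for GC content. The CCAAT box occurred 2 times in Camkk1 and in 33.8% of all promoters. TGACG occurred once in Camkk1 and once in Ppp3r1, and in 17.8% of all promoters. The whole element TGACGTCA was in none of the 4 windows and in 1.55% of all promoters, and the TATA box TATAAA in none of the 4 and in 12.4%. A match is a run of letters, and no binding was measured here.

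Levels of members were also compared with each other across animals. Of 45 pairs of members, 0 passed after adjustment by exact permutation over 40320 orderings (12 at an unadjusted p under 0.05, smallest adjusted p = 0.0608). Camk2a and Camk2b went together (Pearson r = 0.87, exact permutation p = 0.0053, adjusted p = 0.0622, and Spearman rho = 0.93, exact permutation p = 0.0022, adjusted p = 0.0989, n = 8), with r = 0.68 without the 2 samples farthest from the median of Camk2a. Camk2a and Camk4 went in opposite directions (r = -0.86, exact permutation p = 0.0055, adjusted p = 0.0622, and rho = -0.81, exact permutation p = 0.0218, adjusted p = 0.122, n = 8), with r = -0.97 without 2 samples. Both relations were weaker after GC correction, at r = 0.52 and r = -0.66. Other pairs were stronger after it, as Camk2b and Ppp3ca, which went from r = 0.26 to r = 0.87 (exact permutation, adjusted p = 0.116 after correction). With GC correction 11 pairs had an unadjusted p under 0.05 and 0 passed (exact permutation, smallest adjusted p = 0.0636). The sets of libraries with a positive and a negative GC trend hold 4 samples each, too few for a value within them, and pairs with a member that separates those sets are not described.

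The genes most like Camk2a over the 8 samples, among 6531 with a mean value of at least 100, were Cck (r = 0.99), Shisa5 (r = 0.98), Rps21, Ssu72 (both r = 0.97) and Cox6b1 (r = 0.97). Cck, the gene of the neuropeptide cholecystokinin, was 413 ± 81.5 in controls and 438 ± 128 in conditioned samples (SD, n = 4). These values of r are descriptions, picked as the highest of many, and the 8 points share the GC trend of their libraries. After GC correction r with Camk2a was 0.66 for Cck (rank 303), 0.25 for Shisa5 (rank 1993), 0.76 for Rps21 (rank 100), 0.73 for Ssu72 (rank 157) and 0.85 for Cox6b1, a respiratory chain subunit gene (rank 29).

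Of 63 other genes of the pathway, 62 were matched and 61 tested, and limma called 0. At an unadjusted p under 0.05 limma had 1, beside 2.7% of tested genes. edgeR and DESeq2 also called 0 and had 1 each, beside 2.62% and 2.31%. With GC correction 5 of 61 had an unadjusted p under 0.05 (Pcp4l1, Camk1d, Nfatc1, Nfatc3 and Crebbp), beside 5.34% of tested genes, and none passed adjustment. With the replicate block it was 3 (Pcp4l1, Nfatc1 and Crebbp), beside 4.04%, and with both 4, beside 5.73%. In mean log2 value 46 were higher after conditioning and 15 lower, with a median change of 0.09. Quantile normalization gave 38 higher and 23 lower. Calm2, a calmodulin gene, was at 1358 ± 280 in controls and 1420 ± 144 after conditioning (SD, n = 4). Its log2 change was 0.08, and -0.0045 with quantile normalization. Of the 5 genes of calmodulin reservoirs and related small proteins, 3 were higher and 2 lower. Gap43, the growth cone protein gene, was 665 ± 179 and 751 ± 149.

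Pcp4l1, a relative of the calmodulin-binding protein gene Pcp4, was the gene with an unadjusted p under 0.05 in the main limma fit. It read 276, 293, 284 and 259 in controls and 229, 214, 189 and 218 after conditioning. Every conditioned sample was below every control, as for 1.92% of tested genes in either direction. The log2 change was -0.39 ± 0.15 (SE), and with a limma adjusted p of 0.9998 it did not pass over all genes.

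Among the 4 inhibitors and phosphatases of CaM kinases, 2 were higher and 2 lower. Ppm1e, a phosphatase that removes activating phosphates from CaM kinases, was 1135 ± 75.8 in controls and 1369 ± 248 after conditioning, and its relative Ppm1f 305 ± 40.7 and 357 ± 64.1 (SD, n = 4). Of 15 other calmodulin-dependent or related kinase genes and partners, 13 were higher and 2 lower, with Camk1d, a kinase that CaMKKs activate, at 786 ± 54.5 and 945 ± 152 and the phosphorylase kinase subunit gene Phkg1 at 52.1 ± 9.48 and 39.6 ± 9.76. None of these groups held a gene past the threshold. Of 15 tested substrates and effectors of the kinases, 12 were higher and 3 lower. Crebbp, the CREB coactivator gene, was 101 ± 33.95 and 142 ± 26.9 (SD, n = 4), a log2 change of 0.53 ± 0.25 (SE), and Mef2d, a transcription factor gene, 229 ± 34.8 and 270 ± 54.5.

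On the calcineurin side, Rcan1, an inhibitor of calcineurin, was 280 ± 30.3 and 305 ± 33.0, and the anchoring protein gene Akap5 483 ± 62.0 and 511 ± 117 (SD, n = 4). They were the genes with the smallest p of 6 tested regulators, 4 higher and 2 lower, and Akap5 turned to a log2 change of -0.04 with array weights. Of 9 substrates, 6 were higher and 3 lower. Nfatc1 encodes a transcription factor that calcineurin sends to the nucleus. It read 27.4, 28.2, 21.2 and 24.1 in controls and 13.8, 19.9, 5.47 and 21.1 after conditioning. Its groups did not overlap, as for 2 of the 61 tested pathway genes and 1.92% of all tested genes. Between 4 and 33 reads stand behind these values. The related Nfatc3 was 80.9 ± 24.9 and 57.3 ± 15.7. The other Nfatc genes of the list went the other way, with log2 changes of 0.23 and 0.30 on at most 35 reads. Of 4 further calcineurin subunit and B-like genes, 3 were higher and 1 lower. Chp1, listed in the table by its older symbol 1500003O03Rik, was 964 ± 178 and 1071 ± 265, and Ppp3r2, a regulatory subunit gene known from testis, was near the floor, at 3.21 ± 3.92 and 0.585 ± 0.697.

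Markers of cell types that could share the dissected piece moved unevenly between the groups, and no marker passed the threshold. Pan-neuronal markers were higher after conditioning in 9 of 10, with a median log2 change of 0.10 beside the 0.09 of the 10 kinase and calcineurin genes, and their summed value ranged from 14192 to 17980 in controls and 15705 to 18437 after conditioning. Quantile normalization gave 5 of 10 higher and a median of 0.0009. Excitatory neuron markers were higher in 8 of 10 (sums of 3982 to 5690 and 4620 to 6031), and interneuron markers in 5 of 10, or 3 with quantile normalization (3537 to 3957 and 3591 to 4182). Astrocyte markers were lower in 10 of 10 (15570 to 21537 and 16019 to 17423), oligodendrocyte markers in 10 of 10 (2657 to 10748 and 2876 to 4800), oligodendrocyte precursor markers in 7 of 7 (912 to 1323 and 764 to 1049), microglial markers in 9 of 9 (1878 to 2408 and 1739 to 1925), endothelial and mural markers in 9 of 9 (1120 to 1540 and 805 to 1149) and meningeal markers in 7 of 7 (492 to 1044 and 245 to 759). Striatal markers were higher in 4 and lower in 5 of 9 tested (761 to 1203 and 777 to 973). The 6 glial, vascular and meningeal lists had 0 genes higher with edgeR, DESeq2, quantile normalization and GC correction too, and up to 2 genes of a list were higher with array weights. No marker gene was at 0 in all 8 samples. The oligodendrocyte sum was 10748 in context control replicate 3, but 4995, 4961 and 2657 in context control replicates 1, 2 and 4. After conditioning it was 4422, 2876, 4800 and 4715 in replicates 1 to 4, inside the range of those controls. Without context control replicate 3 the members' median log2 change was 0.06, with 7 higher and 3 lower. Leaving out any other single sample gave medians of 0.07 to 0.12, with 6 to 9 higher, so that sample was not particular in this. The part of cell makeup in the members' values was not tested. In bulk tissue fewer cells of a type and less RNA per cell cannot be told apart.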

How the data were processed

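Total RNA from 8 mice was sequenced, and groups were taken from sample titles. The deposited table is named FPKM, but every value above 0 in a column is a whole multiple of 1 step (within 0.01 of a read, 100% of values), so the values are a signal made of gene read counts that the authors divided by a factor per sample, not corrected for length. TopHat and HTSeq are named without versions, and hg19, a human build, per the submitters' processing notes. The annotation, strandedness and origin of the factor were not given in the sources used here. Reads of a gene and its antisense partner therefore cannot be told apart. RefSeq promoters were matched by symbol for 6 of 10 members.

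limma 3.58.1 (R 4.3.3, eBayes with a variance trend) was run on log2(value + 1) for genes whose mean value reached 1, two-sided, with Benjamini-Hochberg adjustment over all 14704 and a threshold of 0.05. Fold changes are on that scale. This log scale test was planned as the main one because the file is named for FPKM, a normalized unit. It was kept as the main test after the values proved to be scaled counts. The recovered reads were also tested with edgeR 4.0.16 and with DESeq2 1.42.0. Ratios and correlations used exact permutation (SciPy 1.17.1). Lengths and GC content came from the longest GENCODE transcript of each symbol (98.8% of tested genes). GC correction subtracted a lowess curve (span 0.3, from genes whose mean log2 value exceeded 5) from each library and was added after seeing the data, as was the exon union length. The main limma fit was tested on simulated counts that had no GC trend, and the other fits were not tested in this way. The members and lists were chosen with earlier results of these data known. Named genes were the members, the 2 genes with the smallest p in each pathway list where none passed, and the 5 genes most like Camk2a; 1 gene that the rule named is not reported here.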

Additional observations from a re-analysis of the deposited data

Results flagged for a closer look

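Of 66 groups of 4 samples examined (values of the named genes and the 3 ratios), 1 had a sample far from the others, where chance flags about 1 in 20. Ppp3r2 read 9.08 in context control replicate 3 and between 0.831 and 1.61 in the other controls, which is at most 9 reads.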

How the results depend on the processing

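0 members passed under every alternative run, namely pseudocounts of 0.1 and 10, no filter and a mean value of at least 10, quantile normalization, edgeR, DESeq2, array weights, the replicate block, GC correction with and without the block, and each sample left out. Over all genes 0 passed, except 1 without fear conditioning replicate 4 (Uevld, log2 change -2.79, limma adjusted p = 0.00646). The number of genes at an unadjusted p under 0.05 was 397, and 823 with array weights, 785 with GC correction, 843 with GC correction and the replicate block, and 251 to 802 with each sample left out. The count of members higher was 6 to 9 with each sample left out. Of 190 log2 changes of members under the alternatives, 21 reversed sign. These were Camk2a (-0.16), Ppp3ca (-0.080) and Ppp3r1 (-0.061) with quantile normalization, Camk4 with array weights (-0.085) and Camk2a with GC correction (-0.022, also with the block); the others came from leaving out a sample, with ranges of -0.11 to 0.14 for Camk2a, -0.048 to 0.30 for Camk4, -0.14 to 0.20 for Camkk1, -0.21 to 0.058 for Camkk2, -0.037 to 0.11 for Ppp3ca and -0.041 to 0.19 for Ppp3r1. Of 284 for the other named genes, 4 reversed: Calm2 (-0.0045) with quantile normalization, Akap5 (-0.041) with array weights, and with a sample left out Calm2 (-0.034 to 0.20) and Akap5 (-0.063 to 0.21). The cause was not tested. The Ppp3ca to Ppp3cb difference was -0.18 to 0.0038 with each sample left out, that of Camk2a to Camk2b -0.24 to -0.09 and that of Camkk1 to Camkk2 0.04 to 0.21. By exon union length, Ppp3r1 ranked 1, Camk2a 2, Camk4 3, Ppp3cb 4, Ppp3ca 5, Camk2b 6, Camk2g 7, Camkk1 8, Camkk2 9 and Camk2d 10 in value per kb.

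Same-numbered samples deviated together with correlations of 0.23, 0.25, 0.07 and 0.11 over 14704 genes for replicates 1 to 4, and 1 of 8 samples correlated best with its own number, so the numbers were not taken as pairs. With the replicate block, 0 members passed and 594 genes had an unadjusted p under 0.05. With 4 samples a group, a typical 95% interval reached 0.40 on the log2 scale to either side for members and 0.62 for tested genes.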
